A study of Mus musculus with 12 samples.

Results

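Heart muscle genes were followed through 12 RNA sequencing libraries from mouse lung tumors and normal mouse lung. The genes were named by a list of 10 symbols, Myh6, Myl4, Myl7, Nppa, Tnnt2, Tnni3, Actc1, Ryr2, Sln and Pln, and 8 of these 10 were found among the 30399 genes of the expression table. Actc1 and Pln were not analysed here. The list was drawn up because Myh6 had been noted for its variation between these libraries, so the values of Myh6 chose it and are given as a description with no test. The other 7 genes were tested between tumor and lung.

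The 5 control libraries carry the tissue label normal lung and the other 7 the label tumor. The series concerns mouse lung cancer models made by nonviral CRISPR/Cas9 mutagenesis. The labels name no strain, age, sex, targeted gene or delivery route, so the groups cannot be given more closely than by tissue. Tumors 3 and 4 carry 1 number in their titles and tumors 5, 6 and 7 another, leaving 4 distinct numbers among the 7 tumors. What a shared number stands for is not stated. Titles of tumors 1 and 7 hold a word for the trachea, those of tumors 3, 4, 5 and 6 a word for the lung, and that of tumor 2 neither. Because nothing ties the libraries to separate animals, p-values measure the spread between these libraries.

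Cardiomyocytes contract when myosin motors pull on actin filaments, a process switched by calcium through the troponin complex. Atrial and ventricular muscle use different versions of several of these proteins. In mice the atrial muscle layer extends along the pulmonary veins into the lung, so a piece of whole lung can contain heart muscle beside epithelium, vessels and airways. In bulk tissue, fewer muscle cells and less RNA per muscle cell cannot be told apart.

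Promoter windows are shown for 3 genes that differed in how they varied: Myh6, the gene with the widest range, Myl7, which stayed measurable in all tumors, and Nppa, which was near the detection limit in 3 lungs. Each window holds the 250 bases before the annotated start, 5′ to 3′ on the gene's strand, from RefSeq on the build GRCm38.p6. Capitals mark matches to a CArG box, a GATA motif (TGATAA) or a TATA box (TATAAA). The Myh6 window lies at chr14:54966608-54966857 and the Myl7 window at chr11:5898783-5899032, both on the minus strand. The Nppa window lies at chr4:148000472-148000721 on the plus strand.
Myh6: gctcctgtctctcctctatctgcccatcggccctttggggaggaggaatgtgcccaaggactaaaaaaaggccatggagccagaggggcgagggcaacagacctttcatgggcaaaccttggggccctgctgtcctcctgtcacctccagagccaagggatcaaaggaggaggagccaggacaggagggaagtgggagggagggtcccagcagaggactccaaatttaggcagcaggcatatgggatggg
Myl7: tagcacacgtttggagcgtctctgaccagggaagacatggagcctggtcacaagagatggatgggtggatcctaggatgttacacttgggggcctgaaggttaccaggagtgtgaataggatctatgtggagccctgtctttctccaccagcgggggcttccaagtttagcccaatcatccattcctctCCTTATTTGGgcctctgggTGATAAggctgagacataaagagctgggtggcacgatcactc
Nppa: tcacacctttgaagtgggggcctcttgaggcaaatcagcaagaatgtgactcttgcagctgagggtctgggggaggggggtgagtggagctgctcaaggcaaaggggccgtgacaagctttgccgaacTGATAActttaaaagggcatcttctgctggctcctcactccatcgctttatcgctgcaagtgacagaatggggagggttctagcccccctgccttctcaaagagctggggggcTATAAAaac
In Myl7 the CArG box, the recognition sequence of serum response factor, ran from -61 to -52 and TGATAA from -42 to -37, counted back from the start. In Nppa the TGATAA match ran from -122 to -117 and TATAAA from -9 to -4. Both strands were searched, the named motifs did not overlap one another, and the 250-base window of Myh6 held no match. Windows were found for 7 of the 8 genes, Sln being the exception. A CArG box stood in 1 of the 7, against 1.47% of 32851 promoter windows of the same length. TGATAA stood in 2 of the 7 against 7.94%, TATAAA in 1 against 12.4%, AGATAA in 1 (Tnnt2) against 9.99%, and a MEF2 site in 0 against 2.92%. These matches describe the sequence and no factor binding was measured.

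Total reads assigned to genes ranged from 11126432 to 17032234 in the lungs and from 13093843 to 24217633 in the tumors. Values are normalized counts, reads per gene divided by a size factor for each library, so 3 reads were worth at most 4.85 in a lung and at most 3.57 in a tumor. Lung epithelial and neuroendocrine genes, listed with earlier results of these data known, separated the lungs from the tumors. All 5 lung epithelial genes tested fell in the tumors, and Sftpc, the surfactant protein of alveolar type 2 cells, lay between 51073 and 111408 in the lungs and between 6.33 and 539 in the tumors. Scgb1a1, Sftpb and Ager were each at least 15640.4 in every lung and at most 627 in every tumor. All 5 neuroendocrine genes rose, and Chga, a granule protein, lay between 3.23 and 10.3 in the lungs and between 11821 and 58490.2 in the tumors. Calca, Insm1 and Dcx were each at most 37.1 in a lung and at least 1726 in a tumor. The fit over all genes called 14554 of 23674 genes, or 61.5%, at an adjusted p under 0.05 with limma. Of all genes tested 31.4% rose and 30.1% fell.

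Against that background none of the 7 heart muscle genes tested was called by limma. Tnni3 and Myl7 had an unadjusted p under 0.05. The median log2 fold change of the 7 genes, tumor over lung, was -0.61, against 0.04 over all genes tested. Levels of the 8 genes spread widely within both groups, and the ranges of lungs and tumors overlapped for every one of them, whereas 38.4% of all genes tested had ranges that did not overlap. The mean log2 level of the 8 genes was 7.08 ± 1.55 (SD, n = 5) in the lungs and 6.88 ± 2.59 (SD, n = 7) in the tumors. Tumor 7 stood apart at 11.63, and the other tumors averaged 6.09 ± 1.67 (SD, n = 6). Without tumor 7, limma called Tnni3 (log2 fold change -3.32, adjusted p = 0.00366) and Myl4 (-1.20, adjusted p = 0.00724) lower in the tumors. Recovered reads were used for 11 libraries, all but tumor 3. On these, edgeR's quasi-likelihood test called Ryr2 higher (log2 fold change 2.37, adjusted p = 0.0192) and none of the other 6. It called 61.2% of all genes it tested. For Ryr2, limma without tumor 7 gave a log2 fold change of 0.89 (adjusted p = 0.130). Single libraries moved the estimates: with each left out in turn, the log2 fold change ran from -1.73 (without tumor 7) to -0.043 (without tumor 1) for Sln, from 1.96 (without tumor 7) to 4.004 (without lung 3) for Nppa and from 0.86 (without lung 4) to 1.92 (without lung 5) for Myl7. It ran from -2.54 (without tumor 7) to -0.96 (without tumor 3) for Tnnt2 and from -3.32 (without tumor 7) to -1.82 (without tumor 3) for Tnni3.

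**Figure D1:**
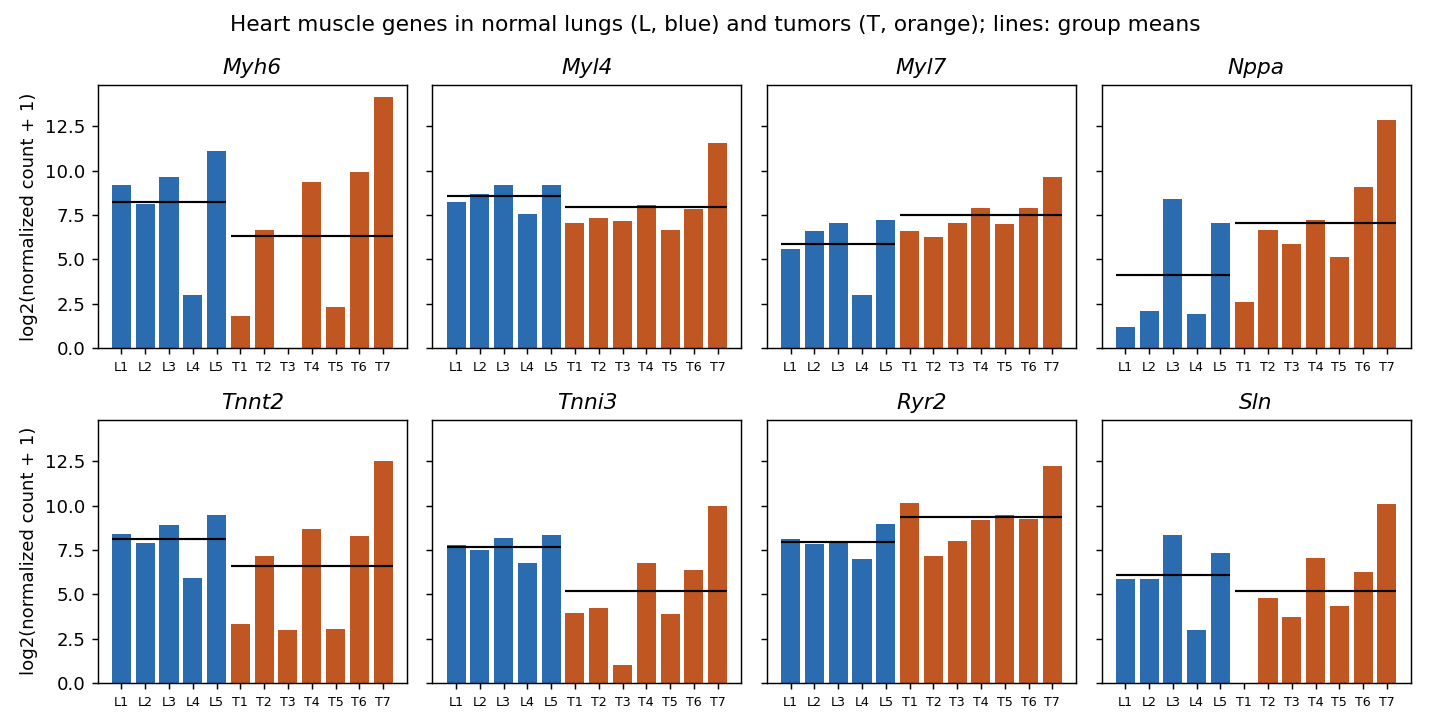
Each panel plots 1 heart muscle gene as log2(normalized count + 1) on the vertical axis for 5 normal lungs (L1 to L5, blue) and 7 tumors (T1 to T7, orange), 1 bar per library, with the mean of each group as a black line. Tumor 7 has the highest bar in all 8 panels, and normal lung 4 the lowest lung bar in every panel but that of Nppa.

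Myh6 encodes the alpha myosin heavy chain, the motor of atrial muscle and the main heavy chain of the adult mouse heart. Its normalized counts were 587, 274, 801, 7.05 and 2209.6 in normal lungs 1 to 5. In tumors 1 to 7 they were 2.53, 101, 0, 660.1, 4.04, 959.6 and 18022. The lungs thus ranged over 313-fold, with lung 4 resting on 5 reads. Tumors 1, 3 and 5 had 4, 0 and 5 reads, at or near the limit of detection, whereas tumor 7 had 28140 reads. Tumors 2, 4 and 6 lay within the range of the lungs, and tumor 7 was 8.16 times higher than the highest other library. The SD of the log2 values was 3.10 in the lungs and 5.16 in the tumors. The log2 fold change of tumor over lung was -1.89. Myh6 shares 31.6% of its 31-base stretches with its neighbour and paralog Myh7, so reads in those stretches could be divided between them in ways the table does not show.

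Thin filament genes had an order of libraries close to that of Myh6. Tnnt2, the cardiac troponin that ties the complex to tropomyosin, had normalized counts of 339, 238, 472, 59.2 and 717 in the lungs. Tumors 1 to 7 held 8.86, 143, 6.94, 405, 7.28, 308 and 5815. Tumors 1, 3 and 5 lay below every lung and tumor 7 above every lung. In limma the log2 fold change came to -1.55 with a standard error of 1.48 (adjusted p = 0.379), and edgeR gave the opposite sign (1.73, adjusted p = 0.297). The edgeR fit left out tumor 3, without which limma gave -0.96. In 9 of the 11 libraries with Myh6 reads the ratio of Tnnt2 to Myh6 counts lay between 0.321 and 1.80, which includes tumor 7 at 0.323. Lung 4 at 8.40 and tumor 1 at 3.50 were the exceptions, both with 5 or fewer Myh6 reads.

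Tnni3, the inhibitory troponin of the adult heart, read 214, 176, 283, 106 and 319.6 in the lungs. In tumors 1 to 7 it read 14.6, 17.9, 0.991, 108, 13.8, 80.9 and 1002. In 5 of the 7 tumors the value lay below every lung, tumor 4 lay just above the lowest lung, and tumor 7 was 3.13 times higher than the highest other library. Its log2 fold change of -2.52 (SE 1.14) missed the threshold with limma (adjusted p = 0.0695), and edgeR gave 0.029 (adjusted p = 0.983). The edgeR fit left out tumor 3, the lowest library for Tnni3, without which limma gave -1.82. Tnni3 overlaps Dnaaf3, a gene for the assembly of cilia dynein, on the same strand. Dnaaf3 values ran from 48.0 to 94.1 in the lungs and from 0 to 8.86 in the tumors, so the lung values of Tnni3 are uncertain by the way shared reads were assigned, and the part of this overlap in the difference was not tested.

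In tumors 1, 3 and 5, where the heavy chain Myh6 was at or near 0, the light chains of atrial myosin were still measured. Myl4, the atrial essential light chain, gave 298, 411, 577, 185 and 596 in the lungs and 134, 161, 142, 273, 100.3, 229.8 and 3016 in tumors 1 to 7. No library fell under 100. For Myl4 the log2 fold change in limma came to -0.61, with a standard error of 0.69 (adjusted p = 0.467), with the opposite sign in edgeR (0.78, adjusted p = 0.460). Myl7, the atrial regulatory light chain, gave 46.4, 95.7, 134, 7.05 and 151 in the lungs. Tumors 1 to 7 gave 97.5, 77.4, 131, 239.8, 125, 236 and 809. Tumors 4, 6 and 7 exceeded every lung, and the remaining tumors lay within the range of the lungs, whose lower end, lung 4, rests on 5 reads. The log2 fold change of 1.59 (SE 0.73) did not pass in limma (adjusted p = 0.0731), nor did that of edgeR (1.70, adjusted p = 0.0712). Myl7 was called higher by DESeq2 (1.62, adjusted p = 0.0417), which gave an adjusted p for 3 of the 7 members tested. Without tumor 7, limma gave 1.22 (adjusted p = 0.123). The ratio of Myl7 to Myh6 counts was 38.5 in tumor 1 and 30.8 in tumor 5, against at most 1 in every lung and 0.0449 in tumor 7.

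Of the calcium handling members, Ryr2 departed most from the other genes over the tumors. Ryr2, the channel that releases calcium from the sarcoplasmic reticulum of heart muscle, is also made in neurons. Its lung values were 276, 229, 245, 126 and 500.1. Tumors 1 to 7 had 1119, 139, 256, 578, 701, 606 and 4779, so 5 of the 7 tumors exceeded every lung. Tumor 1 had the second highest value of the 12 libraries and tumor 5 the third highest, although Myh6 there rested on 4 and 5 reads. The ratio of Ryr2 to Myh6 counts reached 441.75 in tumor 1 and 173 in tumor 5 and was 0.265 in tumor 7. In the lungs it ran from 0.226 in lung 5 to 17.8 in lung 4, the latter on 5 Myh6 reads. Ryr2 had a log2 fold change of 1.37 (SE 0.68) in limma, with an adjusted p of 0.0949. Sln encodes sarcolipin, a small inhibitor of the calcium pump found in atrial and skeletal muscle. Its lung values were 58.0, 57.0, 319.8, 7.05 and 156, and tumors 1 to 7 had 0, 26.2, 11.9, 131, 19.4, 74.8 and 1093. Tumor 1 had no Sln read, the other tumors but tumor 7 lay within the lung range, whose lower end again rests on 5 reads, and the log2 fold change in limma came to -0.90, with a standard error of 1.39 (adjusted p = 0.591), or 1.04 in edgeR (adjusted p = 0.519).

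Nppa, the atrial natriuretic peptide, is a hormone stored in the granules of atrial cells. In lungs 1 to 5 its values were 1.29, 3.23, 342, 2.82 and 131. The lungs therefore split into 3 with no more than 3 reads and 2 with clear expression, although lung 1 held 587 normalized counts of Myh6. In tumors 1 to 7 the values were 5.06, 100.1, 58.5, 147, 34.8, 537 and 7498. Tumor 3, with no Myh6 read, still held Nppa, and tumor 7 was 14.0 times higher than the highest other library, the widest such gap of the 8 genes. The log2 fold change of 2.93 (SE 1.66) did not pass in limma (adjusted p = 0.140). Gm13054 overlaps Nppa on the other strand and lay between 5.38 and 36.8 in all libraries. Whether the counting used strand is not given in the sources used here.

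**Figure D2:**
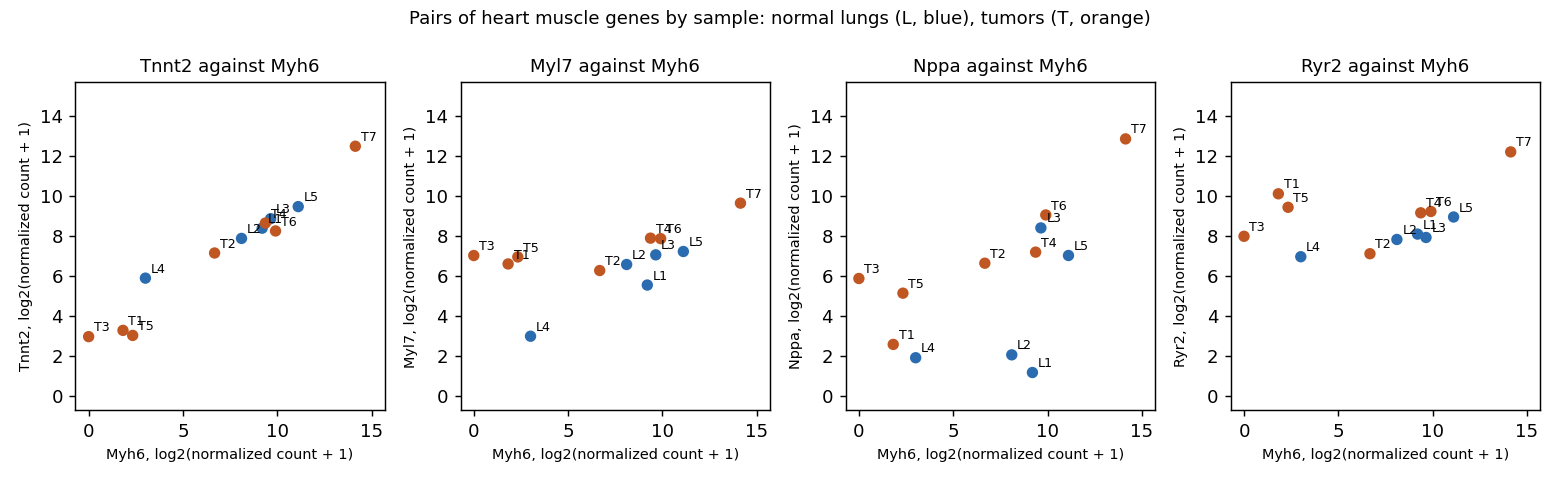
The 4 panels plot log2(normalized count + 1) of Tnnt2, Myl7, Nppa and Ryr2 on the vertical axis against Myh6 on the horizontal axis, 1 point per library (L, normal lung, blue; T, tumor, orange). Tnnt2 follows Myh6 from tumor 3 at 0 Myh6 to tumor 7, whereas Ryr2 is at 1119 in tumor 1, where Myh6 is at 2.53.

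Correlation with the mean log2 level of the other 7 genes described the same ordering. Over the 7 tumors Pearson's r was 0.96 for Tnnt2, 0.95 for Myh6, 0.93 for Tnni3, 0.92 for Nppa, 0.91 for Myl4, 0.90 for Myl7 and 0.89 for Sln, but 0.58 for Ryr2. Over the 5 lungs it ran from 0.67 for Nppa to 0.98 for Tnni3. These points share their libraries, and tumor 7 lies at the end of every range. Among 18485 genes with a mean of at least 10, the 10 closest to the mean of the members over the 7 tumors were Lrp1 (r = 0.997), Igfbp7, Gldn, Myh7, Vim, Pltp, Il12rb1, Gm12295, Psme2 and Capns1, the last with r = 0.988. Over the 5 lungs, which that ranking did not use, Myh7 was the only 1 of these 10 with r over 0.8 (0.89), and 4 had a negative r.

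Compared per kilobase of annotated exon, the members did not keep 1 order. In tumor 7 Nppa led at 8669 normalized counts per kilobase, followed by Myh6 at 2679, Myl7 at 1371, Sln, Tnnt2 at 750.2, Myl4 at 651, Tnni3 at 486 and Ryr2 at 166. In lung 5, the lung with the most Myh6, the order began with Myh6 at 329 per kilobase, Myl7 at 255, Tnni3 at 155 and Nppa at 152. In lung 4 the highest was Tnni3 at 51.3 per kilobase, and Myh6 stood at 1.05. Exon lengths cover all annotated isoforms, which understates the level per length of genes with many isoforms.

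Reads of the 8 members made up 0.0103%, 0.00810%, 0.0177%, 0.00263% and 0.0265% of all reads in lungs 1 to 5. In tumors 1 to 6 they made up 0.00909%, 0.00491%, 0.00362%, 0.0158%, 0.00636% and 0.0194%. Ryr2 alone held 1767 of the 2181 member reads in tumor 1 and 866 of the 1242 in tumor 5. In tumor 7 it held 7462 of 65633, and in lung 1 214 of 1411. In tumor 7 the share was 0.271% (95% exact Clopper-Pearson interval 0.269% to 0.273%, which covers counting error only). The tumor titles do not order these shares: tumors 1 and 7 both carry the trachea word, and tumors 5, 6 and 7 share a title number.

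All 8 members had their highest value of the 12 libraries in tumor 7, and all 8 were more than 2 times higher there than in any other library. Of all genes tested, 8.92% were highest in tumor 7 and 2.98% were more than 2 times higher there. Since the members were chosen with Myh6 in view, this describes that library and was not tested. In 7 of the 8 members the lowest lung was lung 4, against 24.9% of all genes tested. Lung 4 had the highest summed level of 5 lung epithelial genes of the 5 lungs, 404466, and the lowest sum of the 5 mesothelial genes, 1547, against 2584 to 3252 in the other lungs. The part of these differences in composition in the low heart values of lung 4 was not tested.

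Atrial and ventricular genes outside the list of 8 split the muscle signal further. Myh7, the beta heavy chain of fetal and ventricular muscle, read 128, 53.8, 123, 22.6 and 319.6 in the lungs and 0.633, 9.53, 0, 21.6, 1.62, 70.1 and 1512 in tumors 1 to 7. The ratio of Myh7 to Myh6 counts was 0.0941 in tumor 2, 0.0327 in tumor 4, 0.0730 in tumor 6 and 0.0839 in tumor 7. In lungs 1, 2, 3 and 5 it lay between 0.145 and 0.218. Where few Myh6 reads were counted it was 3.20 in lung 4 (5 reads), 0.25 in tumor 1 (4 reads) and 0.4 in tumor 5 (5 reads). Tumor 3 had no Myh6 read and gave no ratio. The log2 fold change of Myh7 was -2.71 (SE 1.52, limma adjusted p = 0.138). Without tumor 7 it was -3.83 (adjusted p = 0.00633), and edgeR gave 1.18 (adjusted p = 0.517). Myl2, the ventricular regulatory light chain and the defining ventricular marker, was at or below 1.41 in every lung, at 13.1 in tumor 2 and at 1.28 in tumor 7. Myl3, shared by ventricular and slow skeletal muscle, reached 113 in lung 3 and 30.1 in tumor 7. Among the 4 ventricular genes, Irx4 was called higher with 0 in all lungs and at most 9.91 in a tumor, a call absent in edgeR and without any 1 of the 5 lungs.

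Among 6 further atrial and pulmonary vein genes limma called 2 higher and 1 lower. Of all genes tested it called 31.4% higher and 30.1% lower, shares that also stand beside each list below. Kcnj3, a subunit of the acetylcholine-gated potassium channel that also serves neurons, rose from between 1.41 and 159.8 in the lungs to between 593 and 3601 in the tumors (log2 fold change 5.75, SE 0.81, limma adjusted p = 4.22e-05). Its partner subunit Kcnj5 had a median of 36.7 in the tumors and in the lungs lay between 8.46 and 105, and only tumor 7, at 708, exceeded the lungs. Nppb, the brain natriuretic peptide, rose in the tumors (log2 fold change 5.21, SE 0.74, limma adjusted p = 4.15e-05), where its values lay between 42.9 and 307, against at most 17.8 in a lung. Gja5, a connexin of atrial muscle and of arterial endothelium, fell (-2.16, SE 0.58, limma adjusted p = 0.00544) from between 8.46 and 33.5 to between 0 and 11.5. Bmp10, a growth factor made almost only by atrial muscle, was at 39.7 in tumor 7, where the atrial myosin-binding protein Mybphl was at 423 against at most 100.02 elsewhere. Bmp10 was at 2.70 in tumor 6, 1.08 in lung 2 and 0 in the other 9 libraries.

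**Figure D3:**
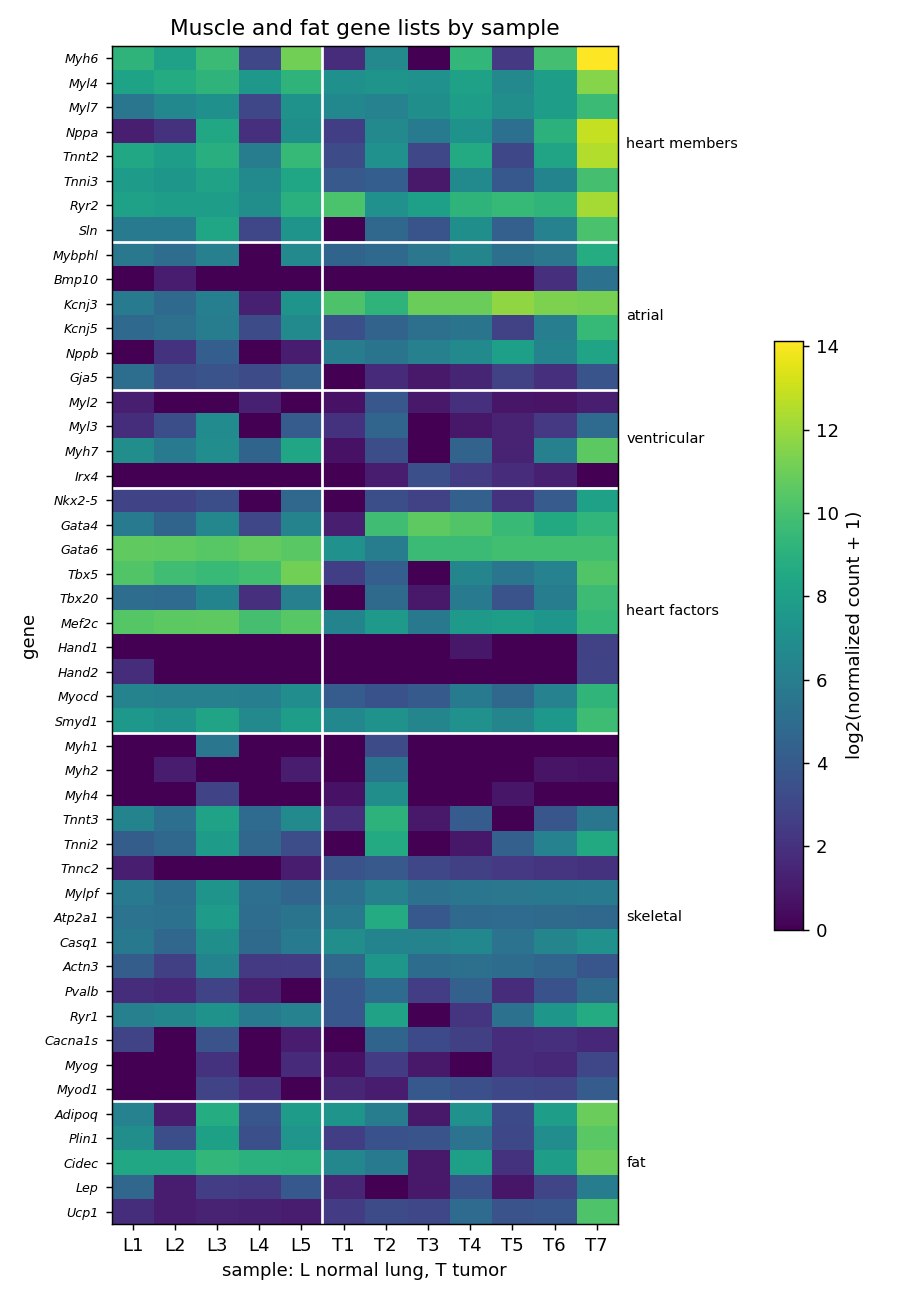
Rows are genes grouped by list (heart members, atrial, ventricular, heart muscle transcription factors, skeletal, fat), columns are the 12 libraries (L, normal lung; T, tumor), and color is log2(normalized count + 1). The column of tumor 7 is bright for the heart members and for the fat genes, whereas Kcnj3 is bright in all 7 tumors and Myh4 and Myh2 reach their highest values in tumor 2.

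Transcription factors of heart muscle differed among themselves. Of 8 tested, none rose and 3 fell with limma, against 31.4% and 30.1% of all genes tested. Hand1 and Hand2 were under the filter on low values. In tumor 7, 4 of the 8 (Nkx2-5, Tbx20, Myocd and Smyd1) were highest and more than 2 times higher than in any other library. Gata4 had 7.05 to 93.7 in the lungs, 1.27 in tumor 1 and 377 to 1582 in tumors 2 to 7, with a log2 fold change of 3.22 (SE 1.37, limma adjusted p = 0.0555). Without tumor 1 it was called by limma (4.44, adjusted p = 3.76e-05). On recovered reads, Gata4 was called higher by edgeR (3.74, adjusted p = 0.00921) and by DESeq2 (3.69, adjusted p = 0.000148). Tbx5 fell (-5.09, SE 1.29, limma adjusted p = 0.0038), from between 772 and 2273 in the lungs to at most 84.4 in tumors 1 to 6, but it stood at 1259 in tumor 7. This call was not made by edgeR (adjusted p = 0.104). Mef2c fell (-2.98, SE 0.48, limma adjusted p = 0.000121) and Gata6 fell (-1.75, SE 0.63, limma adjusted p = 0.0270), the latter not called without lung 1 or lung 4 nor by edgeR (adjusted p = 0.0736). In lung 4, where Myh6 rested on 5 reads, Tbx5 was at 931, Mef2c at 1014 and Gata6 at 1691, its highest value of any library. Among the 5 lungs, lung 4 was thus lowest for Myh6 and for Mef2c, but not for Tbx5 or Gata6. The part of lung cells other than heart muscle in these 3 calls was not tested. Nkx2-5, which defines early heart muscle, was at 274 in tumor 7 and at most 26.4 elsewhere, and Tbx20 was at 838 in tumor 7 and at most 80.8 elsewhere.

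Shared sarcomere and Z-disc genes followed the members in tumor 7. Of 13 tested, 10 were highest in tumor 7 and 9 of these were more than 2 times higher there. Limma called 1 higher and 3 lower, against 31.4% and 30.1% of all genes tested. Actn2, the Z-disc actinin, rose from between 5.64 and 158 in the lungs to between 133 and 1955 in the tumors (log2 fold change 2.92, SE 0.78, limma adjusted p = 0.00533). Tpm1 (-1.24, SE 0.18, limma adjusted p = 5.45e-05), Nebl (-1.48, SE 0.28, adjusted p = 0.000404) and Des (-2.39, SE 0.66, adjusted p = 0.00678) fell, and these 3 genes were between 1956 and 6772 in every lung. Smooth muscle also makes Tpm1 and Des. Ttn, the giant spring protein of the sarcomere, lay between 83.2 and 953 in the lungs, with 36.7 in tumor 1, 4059.96 in tumor 5 and 5755 in tumor 7.

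In the list of 10 further calcium handling and excitation genes, 3 rose and 2 fell, against 31.4% and 30.1% of all genes tested. In tumor 7, 5 of the 10 were highest, against 8.92% of all genes tested. Hcn4, the pacemaker channel, which neurons also make, rose from between 11.3 and 32.2 in the lungs to between 689 and 3147 in the tumors (log2 fold change 6.28, SE 0.41, limma adjusted p = 3.14e-08). Slc8a1, the sodium-calcium exchanger, rose (1.74, SE 0.22, adjusted p = 1.76e-05), as did Cacna1c, the L-type calcium channel (0.94, SE 0.23, adjusted p = 0.00339). In tumor 7 Hcn4 was at 774 and Cacna1c at 3508, each below the median tumor. Atp2a2, the calcium pump of heart muscle and of most other cells, lay between 3292 and 6261 in all libraries but tumor 7, where it stood at 24753. Jph2 (-2.69, SE 0.77, limma adjusted p = 0.00786) and Gja1 (-3.11, SE 0.53, adjusted p = 0.00019) fell, although tumor 7 reached 1836 for Jph2, above every lung, and 1647 for Gja1. The call of Jph2 was not made by edgeR (adjusted p = 0.346). Of 9 muscle energy genes 7 were highest in tumor 7, among them Hspb7, a small heat shock protein of muscle, at 4062 against at most 795 elsewhere, and the oxygen store Mb at 1918 against at most 651. Pgam2 and Eno3, both of glycolysis, were at 635 and 507 there against at most 406 and 468. Cox7a1 was the only 1 of the 9 called (higher), and the call was lost without any 1 of the 5 lungs.

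Markers of other tissues were read beside the heart genes. Of 15 skeletal muscle genes 3 were called higher (Tnnc2, Pvalb and Myod1, each at most 29.8 in a tumor), and 4 were highest in tumor 7, none of them by more than 2 times. The list summed to 2240 in tumor 2, 1331 in lung 3, 1130 in tumor 7 and between 198 and 486 elsewhere. In tumor 2 Myh4, a fast skeletal myosin, was at 127 and Tnnt3, the fast skeletal troponin, at 572, and in lung 3 Myh1 was at 45.2 and Tnnt3 at 287. In tumor 7 the list was mixed: Ryr1, the skeletal release channel, was at 411, the highest of the 12 libraries, and Tnni2, the fast skeletal inhibitory troponin, at 379 against 396 in tumor 2, whereas Atp2a1, the fast muscle calcium pump, was at 26.9 against 407 in tumor 2. Myh1 and Myh4 were at 0 in tumor 7, as Myh1 was in 10 of the 12 libraries. The part of skeletal muscle in Sln or in the shared sarcomere genes of tumor 2 and lung 3 was not tested.

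Fat genes moved with the heart genes in tumor 7. All 5 were highest in tumor 7 and more than 2 times higher there than in any other library, and their sum was 6598, against 360 to 1345 in the lungs and 21.8 to 627 in the other tumors. Ucp1, the uncoupling protein that defines brown fat, was at 1221 in tumor 7, 4.43 to 29.6 in the other tumors and at most 2.58 in a lung. It was the 1 fat gene called higher by limma (log2 fold change 3.13, SE 1.08, adjusted p = 0.0215), and the call was lost with the title number as a random block (2.88, adjusted p = 0.0645). Adipoq, a hormone of fat cells, was at 1928 in tumor 7 and at most 431 elsewhere, and the lipid droplet proteins Cidec and Plin1 were at 1907 and 1481 against at most 649 and 258. Smooth muscle genes fell in 5 of 7 cases with limma and in 1 with edgeR, among them Cnn1 (-2.93, SE 0.54, limma adjusted p = 0.000396) and Myh11 (-2.27, SE 0.56, adjusted p = 0.0034, but 0.101 in edgeR), and summed to 10430 in tumor 7 against 1313 to 2586 in the other tumors. Acta2, smooth muscle actin, was at 4374 in tumor 7 and at most 2839.7 elsewhere, and Smtn at 2573 against at most 1674. The mesothelial list fell in 4 of 5 cases (Upk3b, Upk1b, Msln and Lrrn4) and summed to 1105 in tumor 7 against 6.94 to 406 in the other tumors. The lung epithelial list was lowest in tumor 7, with a sum of 238, close to the 243 of tumor 3. The neuroendocrine list was lowest among tumors in tumor 7, with a sum of 21366 against 30360 to 90496. The part of these other tissues in the heart values of tumor 7 was not tested.

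**Figure D4:**
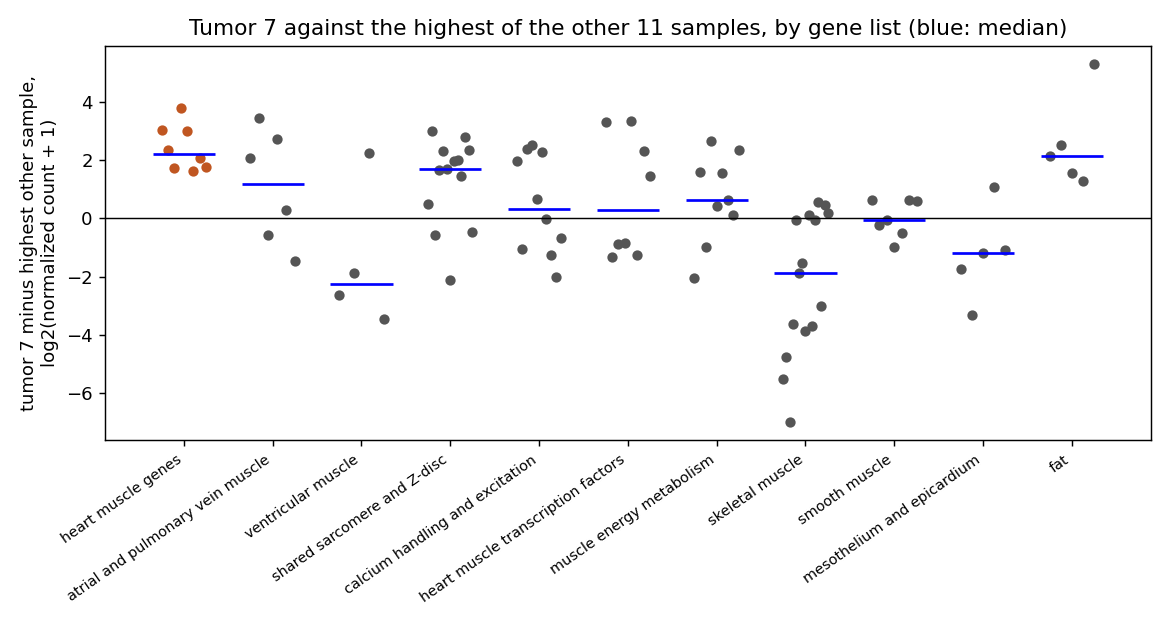
For each gene of 11 lists that passed the filter on low values, the vertical axis gives log2(normalized count + 1) in tumor 7 minus that in the highest of the other 11 libraries, 1 point per gene, with the list's median as a blue bar. All 8 heart muscle genes (orange) and all 5 fat genes lie above 0, whereas 11 of the 15 skeletal muscle genes lie below it.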

How the data were processed

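Poly-A RNA of 5 normal mouse lungs and 7 tumors was sequenced on an Illumina NovaSeq, per the labels' protocols. The table deposited by the authors holds a signal per gene, reads divided by a size factor for each library. Per the submitters' processing notes featureCounts and DESeq2 were used with GRCm39; versions are not given in the sources used here. Within a tolerance of 0.001, 100% of values were whole multiples of what 1 read is worth. A check of the steps accepted 11 libraries and not tumor 3, so the count tests used 11. Symbols and exon lengths came from GENCODE M21 by gene ID; 29982 of 30399 IDs matched, and no coordinates were taken from it.

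Tumor was compared with lung by limma 3.58.1 in R 4.3.3 on log2(value + 1), for 23674 genes with a mean of at least 1, with a trended empirical Bayes variance and Benjamini-Hochberg adjustment. Fold changes on this scale understate those of low genes. Genes were called at an adjusted p under 0.05. The alternatives were edgeR 4.0.16 (quasi-likelihood; TMM factors, no filter or size factors), DESeq2 1.42.0, quantile normalization, equal totals, a pseudocount of 0.1, no filter, a mean of at least 10, tumors of 1 title number averaged or blocked, no trachea-titled tumors and each library left out. edgeR with TMM factors called 11205 of 18308 genes. The fit was tested on simulated data. All 25 pairs of libraries compared for duplicates differed by far more than counting error, with a chi-square of at least 19.8 times its degrees of freedom.

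The members and 15 further lists (atrial, ventricular, sarcomere, calcium, transcription factors, energy, skeletal and smooth muscle, mesothelium, cartilage, thymus, squamous epithelium, fat, lung epithelium, neuroendocrine) were chosen with earlier results of these data known. In the transcription factor list 1 gene is not reported here and was left out of its counts, and 1 further list is not reported here. Named were all members, the 4 highest genes of each list by mean, others needed to account for a count of 5 or fewer, and the 10 genes most like the members in the tumors. Bmp10, Nkx2-5, Tbx20, Myocd, Smyd1, Myh1 and Myh4 were named after their values were seen.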

Additional observations from a re-analysis of the deposited data

Results flagged for a closer look

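For each gene with a printed fold change, the highest and lowest log2 value of a group were compared with the nearest other library by Dixon's criterion at 95%. Of 56 groups compared, those of Myh6 included, 6 had a library far from the others. For independent groups chosen beforehand, chance would give about 1 in 20, or 2.8. These genes share their libraries and were chosen with earlier results known, so 2.8 is no yardstick here. The count is a description and no test. Among the tumors, tumor 7 was the highest for Myl4 (11.56, nearest 8.10), Gja1 (10.69, nearest 8.32), Myh11 (10.99, nearest 8.41) and Ucp1 (10.26, nearest 4.94), all in log2(normalized count + 1). Tumor 1 was the lowest tumor for Gata4 (1.18, nearest 8.56). In the lungs, lung 5 was the highest for Jph2 (10.17, nearest 9.60).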

How the results depend on the processing

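None of the 7 members tested was called by limma as reported, and the count depended on the setting. With quantile normalization or equal totals 1 member was called higher (Myl7), with edgeR 1 (Ryr2, under TMM factors, no filter and size factors alike) and with DESeq2, which gave an adjusted p for 3 of the 7, 2 (Myl7 and Ryr2). Without the trachea-titled tumors 1 and 7, 2 were called lower (Tnni3 and Myl4). With 1 library left out, the number called higher ranged from 0 to 1 (1 without lung 5, Myl7, or without tumor 2, Ryr2) and the number called lower from 0 to 2 (2 without tumor 7). Some log2 fold changes turned from below to above 0 on recovered reads, which leave out tumor 3. In limma with any 1 library left out, tumor 3 included, the same genes stayed below 0. Their highest values there were -0.39 for Myl4, -0.96 for Tnnt2, -0.043 for Sln, -2.07 for Myh7 and -1.82 for Tnni3. The cause of these turns was not tested. With edgeR under TMM factors, no filter and size factors the fold changes were 0.78, 0.71 and 0.67 for Myl4, 1.73, 1.66 and 1.62 for Tnnt2, 1.04, 0.96 and 0.93 for Sln, and 1.18, 1.11 and 1.07 for Myh7. Tnni3 turned under TMM factors alone (0.029), and Sln also under DESeq2 (0.92). Over all genes 7430 rose and 7124 fell, with 1 library left out from 6829 to 7684 and from 6526 to 7574; edgeR with TMM factors called 6384 and 4821, and equal totals 8617 and 6111. Among the lists, edgeR with TMM factors called 1 heart transcription factor higher and 1 lower, 1 further calcium gene lower and 1 smooth muscle gene lower. With the title number as a replicate block (consensus correlation 0.304), limma called 0 members higher and 0 lower. Title numbers are not shared between lungs and tumors and no label pairs a tumor with a lung, so no paired analysis was possible. Depth limits Myh6 in lung 4 and tumors 1, 3 and 5, Nppa in lungs 1, 2 and 4, Myl7 in lung 4, Sln in lung 4 and tumor 1 and Tnni3 in tumor 3, where 5 or fewer reads were counted.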

Other observations

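Of 6 cartilage genes, listed because a trachea carries cartilage rings, 5 rose in the tumors and 1 did not pass the test with limma. The list summed to between 9.87 and 40.2 in the lungs and to between 319 and 692 in the tumors, with 400.1 in tumor 1, 364 in tumor 7 and the highest sum in tumor 4. Col2a1, the collagen of cartilage, was at most 2.30 in a lung and reached 228 in tumor 2 and 32.0 in tumor 7. Hapln1, Acan, Cnmd and Col9a1 also rose. Of 3 thymus genes limma called Dntt and Ptcra higher and Cd8b1 lower, and Ptcra was at most 8.34 in a tumor. None of the 4 squamous epithelial genes (Krt4, Krt5, Krt13 and Krt14) passed. Krt13 was at 109.5 in tumor 7, 39.8 in tumor 6 and at most 5.75 in the other libraries. Krt4, Krt5 and Krt14 were highest in tumor 4.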
